A study of Mus musculus with 18 samples.

Results

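The collagen genes of the mouse were followed through 4 deposited lists of chromatin differences in heart muscle cell preparations. Members were all protein-coding autosomal genes whose symbol is Col, a number, a and a number, which gave 42 genes of 20665 autosomal protein-coding genes in the annotation. They comprised 11 fibrillar collagens, 4 basement membrane collagens of type IV and 27 other collagens, and the 2 members on the X chromosome were left out. Every listed region that overlapped a gene or its 5 kb on either side was assigned to that gene.

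The study profiled G9a, the histone mark H3K9me2, the histone mark H3K27me3 and the transcription factor Mef2c by chromatin immunoprecipitation and sequencing (ChIP-seq) in populations enriched for cardiomyocytes. The KO group carried the genotype G9a flox/flox with alphaMHC-MerCreMer +/-, and the Cre group carried alphaMHC-MerCreMer +/- alone, both on the strain C57BL/6J. Each target had 2 KO and 2 Cre libraries, and each genotype had 1 input library that holds no value in the lists. The transgene was shared by all groups, and the labels used here give no age, sex, dose or time of treatment. Because the alphaMHC promoter drives the recombinase in cardiomyocytes, other heart cells that remain in an enriched population keep their floxed G9a gene. Fewer cells of a type and less signal per cell cannot be told apart in such bulk preparations.

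Collagens are triple helices of alpha chains that form most of the extracellular matrix of the heart. The fibrillar types I, III and V build the interstitial fibres and are made chiefly by cardiac fibroblasts, whereas type IV chains form the sheet-like basement membrane around cardiomyocytes and vessels, and type VI, XV and XVIII collagens link cells to these networks. G9a is a histone methyltransferase that places H3K9me2, a mark of repressed chromatin. H3K27me3 is the mark of Polycomb repression, laid down by another enzyme complex, and Mef2c is a DNA-binding factor of muscle genes.

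Every value below is the authors' own. Each listed region has 2 KO values and 2 Cre values of unknown scale and a -log10 p of the authors' comparison, and each was listed because it differed, with a -log10 p of at least 2. Sequencing depth is therefore unknown, and unlisted sequence has no value. A limma test on log2(value + 1) was run over each whole list, and p-values from regions selected for a difference are too small. An exact permutation test of 2 against 2 libraries cannot go below a two-sided p of 0.333, so such tests were not used. The values carry no replicate number and are called first and second.

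The libraries were checked at marker genes before the collagens were read. Summed over the whole G9a list, the signal was 67330671 and 60303126 in KO and 81854091 and 74637114 in Cre, and both KO libraries lay below both Cre libraries. The same held for H3K27me3 (91245526 and 91306125 in KO, 114744154 and 111835917 in Cre) and Mef2c (44305272 and 49004436 in KO, 59195613 and 57120167 in Cre), so the lower total was not limited to the targeted enzyme. The H3K9me2 totals went the other way, with 83393571 and 88748057 in KO and 75952258 and 67612918 in Cre. The 8 cardiomyocyte markers had a median H3K27me3 level of 1.04 and 1.29 listed signal per kb of gene window in KO, and 1.07 and 1.04 in Cre, and Tnnt2, Ttn and Pln among the 8 had no listed region. The 7 fibroblast markers had medians of 35.3 and 36.2 per kb in KO and 39.7 and 42.6 in Cre. Other marker lists were higher. Endothelial markers had medians of 44.3 and 41.6 in KO and 57.4 and 58.7 in Cre. Smooth muscle and pericyte markers had 71.6 and 76.3 in KO and 96.55 and 85.4 in Cre. Leukocyte markers had 72.5 and 74.3 in KO and 87.2 and 90.2 in Cre. The summed H3K27me3 level of the fibroblast markers was 825 and 791 per kb in KO and 895 and 851 per kb in Cre, with all 7 listed. The summed level of the 5 listed cardiomyocyte markers was 75.9 and 137 per kb in KO and 161 and 73.3 per kb in Cre, most of it from Myh6, with sums of 2125 and 4262 in KO and 5389 and 1985 in Cre. Most muscle genes other than Myh6 thus carried little listed H3K27me3 in either genotype, although ChIP-seq does not count cells, and the part of non-muscle cells in the results below was not tested. The second KO value of G9a stood apart. Its summed signal at the collagens was 65.4% of the first KO value, against 87.5% over all genes, and 63 collagen regions were at 0 in it against at most 9 in any other G9a library. The sign of the G9a regions and sums, the most negative named sums and some start regions are also given without it. The other G9a counts below rest on both KO values.

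Collagen genes carried much listed H3K27me3. The median collagen gene had 86.3 and 87.9 listed signal per kb in KO and 103 and 107 in Cre, while the median of all genes with a listed region had 27.6 and 29.6 in KO and 35.2 and 33.8 in Cre. In Cre, 30 of the 42 collagens lay above the all-gene median. These levels come only from regions that differed, which covered a median of 44.5% of the collagen windows, and collagen genes are long, with a median window of 120.4 kb against 27.5 kb for all genes. No test was made of the difference in level, since the lists hold no unselected sequence.

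Within the family the level varied over a wide range, also inside the fibrillar class. Among the fibrillar genes, Col1a1, the main chain of type I collagen, had 250.5 and 222 per kb in KO and 252 and 238 in Cre. Col5a3, a type V chain, had 205 and 166 per kb in KO and 268 and 285 in Cre. Col3a1, the type III chain that shares its fibres with type I, had only 6.17 and 9.22 per kb in KO and 9.76 and 9.51 in Cre. Its neighbour Col5a2, another type V chain, was as low, with 9.58 and 8.91 in KO and 9.45 and 12.1 in Cre. Col1a2, which pairs with Col1a1 in the same triple helix, lay between them at 103 and 104 in KO and 132 and 116 in Cre. The fibrillar genes that work together in the heart's interstitium were thus far apart in listed H3K27me3 per kb. The gap was far larger than that between the libraries of either genotype. Unlisted sequence has no value, so their full H3K27me3 levels are not known.

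The type IV genes of the basement membrane class carried little listed H3K27me3. This did not hold for Col15a1 and Col18a1, basement membrane collagens placed here among the other collagens. Their median was 102.8 and 104.4 per kb in KO and 119.8 and 115.9 in Cre. Col4a1 and Col4a2, which encode the chains found in nearly every basement membrane, had next to none. Col4a2 had no listed region and Col4a1 had a single region in its flank, with values of 112 and 15 in KO and 2 and 29 in Cre. Col4a3 and Col4a4, whose chains belong to specialised basement membranes such as that of the kidney glomerulus, had 20.8 and 20.9 per kb and 13.2 and 15.4 per kb in KO, against 24.6 and 27.8 per kb and 21.7 and 22.5 per kb in Cre. Genes of cartilage chains were spread over the whole range. Col2a1, Col9a2 and Col9a3 were high, at 211 and 202, 214 and 196, and 207 and 181 per kb in KO, against 206 and 184, 242 and 200, and 251 and 203 per kb in Cre. Col9a1 had 87.5 and 84.4 per kb in KO and 108 and 109.8 in Cre, and Col11a1 was low, with 18.8 and 18.2 in KO and 18.2 and 15.8 in Cre. Col10a1, the chain of hypertrophic cartilage, had no listed H3K27me3 region. The plot of H3K27me3 by gene shows the 2 values of each genotype for every member.

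**Figure D1:**
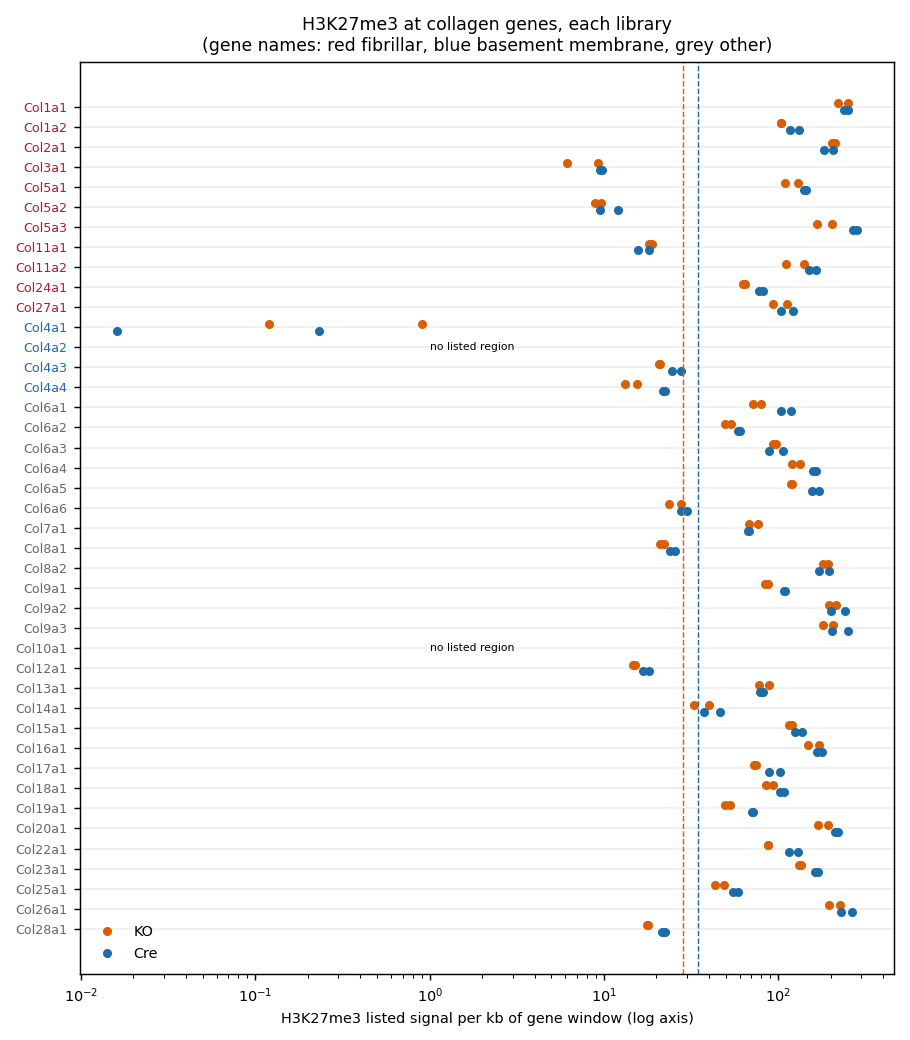
H3K27me3 listed signal per kb of gene window (log axis) for each collagen gene, with 2 KO values in orange and 2 Cre values in blue; dashed lines are the mean of the all-gene medians in each genotype. Most collagens lie right of these lines, Col3a1 and Col5a2 lie near 10, Col4a1 lies under 1, and Col4a2 and Col10a1 have no listed region.

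The direction of the listed changes at collagens was that of the whole list. Of 1712 G9a regions at collagens, 61.9% were lower in KO, against 60.7% of regions at all genes. The G9a values depended on the second KO value. The limma difference was negative at 62.3% of the collagen regions with all values and at 53.5% without it. The median difference was -0.8 (-0.83 over the whole list) with all values and -0.08 (-0.27 over the whole list) without it. For H3K9me2 44.7% of 1587 regions were lower, against 41.8%. For H3K27me3 61.7% of 1717 regions were lower, against 61.9%, and for Mef2c 60.6% of 1301 regions were lower, against 59.9%. Nearly every collagen gene held regions of both directions: 41 of 42 genes for G9a (81.7% of all genes), 42 for H3K9me2 (82.5%), 39 for H3K27me3 (58.5%) and 42 for Mef2c (81.2%). Collagen windows are longer than those of most genes, so more of them can hold both directions.

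The structural classes were close to each other as well, with the widest distance in Mef2c. The share of lower regions was 61.4% for fibrillar, 58.4% for basement membrane and 62.2% for other collagens in G9a. It was 40.5%, 47.8% and 45.6% in H3K9me2, 58.8%, 62.3% and 62.4% in H3K27me3, and 58.6%, 52.7% and 62.2% in Mef2c, in the same order of classes. The basement membrane shares rest on 53 to 113 regions of 4 genes, and no test was made between classes, since regions of a gene share their source.

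**Figure D2:**
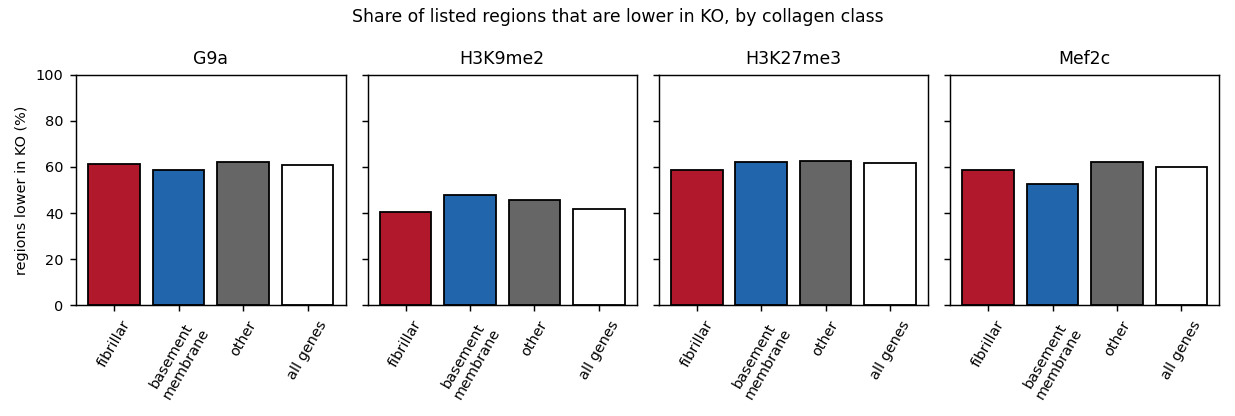
Share of listed regions that are lower in KO (percent, axis from 0 to 100) for fibrillar, basement membrane and other collagens and for all autosomal protein-coding genes, in each of the 4 targets. The bars of each target lie within about the same height as that of all genes, near 60 in G9a, H3K27me3 and Mef2c and nearer 40 in H3K9me2.

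No region at a collagen gene passed an adjusted p of 0.05 in limma for any target, and over all regions at genes only 3 of H3K27me3 did (0.00149%). At an unadjusted p under 0.05 there were 90 collagen regions in G9a (6.27% of regions at all genes), 142 in H3K9me2 (10.2%), 264 in H3K27me3 (15.3%) and 152 in Mef2c (10.8%). Of these, 69, 52, 213 and 116 were lower and 21, 90, 51 and 36 higher in KO, in the same order of targets. With the libraries scaled to the same median the split was 37, 132, 74 and 56 lower and 73, 46, 154 and 105 higher, so the leaning of these counts depends on the scaling. The KO values were separated from the Cre values, with no overlap, in 949 collagen regions of G9a (61.5% of regions at all genes), 1066 of H3K9me2 (65.3%), 1164 of H3K27me3 (67.0%) and 891 of Mef2c (65.8%). These were 55.4%, 67.2%, 67.8% and 68.5% of the collagen regions. The collagens were near the background in 3 targets and below it in G9a.

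Summed over each gene, H3K27me3 fell at some collagens. Of 40 collagen genes with a listed region, 34 had a negative log2 difference (71.6% of all genes), and 11 fell at an adjusted p under 0.05 in limma (15.1% of all genes), with none rising (1.81%). The 11 were Col4a4, Col5a3, Col6a1, Col6a4, Col6a5, Col9a1, Col19a1, Col22a1, Col23a1, Col24a1 and Col25a1, with log2 differences of -0.63 to -0.31 and adjusted p of 0.00105 to 0.0482. The median of all genes was itself -0.27. With the libraries scaled to the same median their differences were -0.35 to -0.03 and none of the 11 passed (adjusted p of 0.254 to 0.917), and without either of the Cre values none passed. Several of the 11 calls were also lost without the first KO value, and several without the second. The median collagen difference was -0.26 (-0.24 over all genes) without the first KO value. It was -0.22 (-0.26 over all genes) without the second KO value. Both KO sums were below both Cre sums at 26 of the 40 (50.5% of all genes) and above them at 0 (14.5%). The all-gene shares of sums, here and in the other targets, were not matched for window length. The median window was 120.4 kb for collagens and 27.5 kb for all genes. The longest collagens, Col25a1, Col22a1, Col19a1, Col23a1 and Col24a1, were all among the 11, and the part of length in the calls was not tested.

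Col5a3 had H3K27me3 sums of 11279 and 9161 in KO and 14750 and 15672 in Cre, a log2 difference of -0.58 ± 0.12 (SE, adjusted p = 0.00232 in limma). Both KO sums lay below both Cre sums. Col22a1, a collagen of tissue junctions, had 31755 and 31836 in KO and 47534 and 42292 in Cre, with a difference of -0.50 ± 0.09 (adjusted p = 0.00105 in limma). Col4a4 had 1968 and 2294 in KO and 3224 and 3345 in Cre, with the most negative called difference of -0.63 ± 0.17 (adjusted p = 0.0153 in limma). Col6a1, a chain of the type VI collagen that surrounds cells, had 2176 and 1954 in KO and 2812 and 3237 in Cre, at -0.55 ± 0.18 (adjusted p = 0.0339 in limma). The main interstitial chains were near 0 or near the median of all genes: Col1a1 had 6719 and 5941 in KO and 6753 and 6373 in Cre (log2 difference -0.05 ± 0.13, SE), and Col1a2 had 4733 and 4788 in KO and 6040 and 5347 in Cre (-0.26 ± 0.14).

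Mef2c signal also fell at some collagens. Of 42 genes, 35 had a negative difference (71.4% of all genes) and 6 fell at an adjusted p under 0.05 in limma (5.87% of all genes), with none rising (0.352%). Both KO sums were below both Cre sums at 26 genes (45.5% of all genes) and above them at 2 (11.9%). The 6 were Col5a3, Col9a1, Col12a1, Col17a1, Col18a1 and Col24a1, with differences of -0.84 to -0.53. None of the 6 passed with the libraries scaled to the same median, where their differences were -0.51 to -0.20, and none passed without either of the Cre values. Col17a1, a transmembrane collagen of epithelial anchoring structures, had Mef2c sums of 1758 and 959 in KO and 2072 and 2616 in Cre, at -0.84 ± 0.24 (adjusted p = 0.0368 in limma). Without the second KO value its difference was -0.41 and did not pass, nor did Col12a1. Col18a1, the basement membrane proteoglycan whose C-terminal fragment is endostatin, had 2868 and 2725 in KO and 4047 and 4051 in Cre, at -0.53 ± 0.16 (adjusted p = 0.0459 in limma). Both KO sums were below both Cre sums in each. Col1a1 went the other way without passing the test, with 1260 and 1352 in KO and 975 and 1079 in Cre, at 0.35 ± 0.23 (adjusted p = 0.328 in limma), as did the network chain Col8a2 with 1229 and 1125 in KO and 981 and 1067 in Cre. The partner of Col1a1, Col1a2, had 978 and 990 in KO and 1507 and 1627 in Cre, at -0.67 ± 0.22 (adjusted p = 0.0636 in limma). The 2 chains of type I collagen therefore had opposite signs in Mef2c. With the libraries scaled to the same median, the sign over the family no longer leaned to lower values in any of the 3 targets G9a, H3K27me3 and Mef2c (22 of 42, 16 of 40 and 19 of 42 genes negative).

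G9a and H3K9me2 sums had no collagen past the test. G9a, the enzyme targeted by the deletion, was negative at 38 of 42 collagens (71.6% of all genes). At an unadjusted p under 0.05 in limma there were 2, both negative (11.6% of all genes negative, 1.83% positive). None passed an adjusted p under 0.05 (0.0% of all genes in either direction). Without the second KO value 21 of 42 were negative, with a median difference of -0.0 (-0.2 over all genes). Without the first KO value 39 of 42 were negative, with a median of -0.58 (-0.3 over all genes). Both KO sums lay below both Cre sums at 14 collagens (39.3% of all genes) and above them at 0 (11.1%). The most negative of the 14 were Col9a2 (1467 and 785 in KO, 2242 and 1524 in Cre), Col11a2 (1704 and 796 in KO, 1803 and 2105 in Cre) and Col8a1 (2488 and 1773 in KO, 3559 and 3390 in Cre), at -0.78, -0.74 and -0.73 on the log2 scale. Without the second KO value these were -0.33, -0.19 and -0.48.

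H3K9me2, the mark that G9a places, was higher rather than lower over most of the family. It was positive at 28 of 42 collagens (69.7% of all genes) and negative at 14 (30.3%). Both KO sums lay above both Cre sums at 14 collagens (40.8% of all genes) and below them at 4 (12.6%), and limma called none at an adjusted p under 0.05 (3.03% of all genes higher, 0.135% lower), with 2 higher and 1 lower at an unadjusted p under 0.05 (19.4% and 2.83%). Among genes with separate sums, the most positive were Col8a1, a chain of short network-forming collagen, with 4046 and 4550 in KO and 3665 and 2676 in Cre, Col3a1 with 1295 and 1398 in KO and 896 and 1115 in Cre, and Col9a2 with 795 and 1073 in KO and 623 and 762 in Cre. The most negative were Col7a1, the anchoring fibril collagen of skin, with 881 and 949 in KO and 1168 and 1562 in Cre, Col1a1 with 579 and 597 in KO and 882 and 744 in Cre, and Col20a1 with 810 and 867 in KO and 923 and 1063 in Cre. Leaving out 1 library at a time gave log2 differences of 0.23 to 0.68 for Col8a1, 0.27 to 0.59 for Col3a1 and 0.21 to 0.64 for Col9a2. The same gave -0.77 to -0.35 for Col7a1, -0.58 to -0.34 for Col1a1 and -0.34 to -0.14 for Col20a1. With the libraries scaled to the same median 32 of 42 were negative and 2 passed the adjusted test as lower (3.24% of all genes passed, in either direction). The sign of this mark over the family thus depends on the scaling. The median of all genes moved to -0.06 there, against 0.23 on the values as listed.

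**Figure D3:**
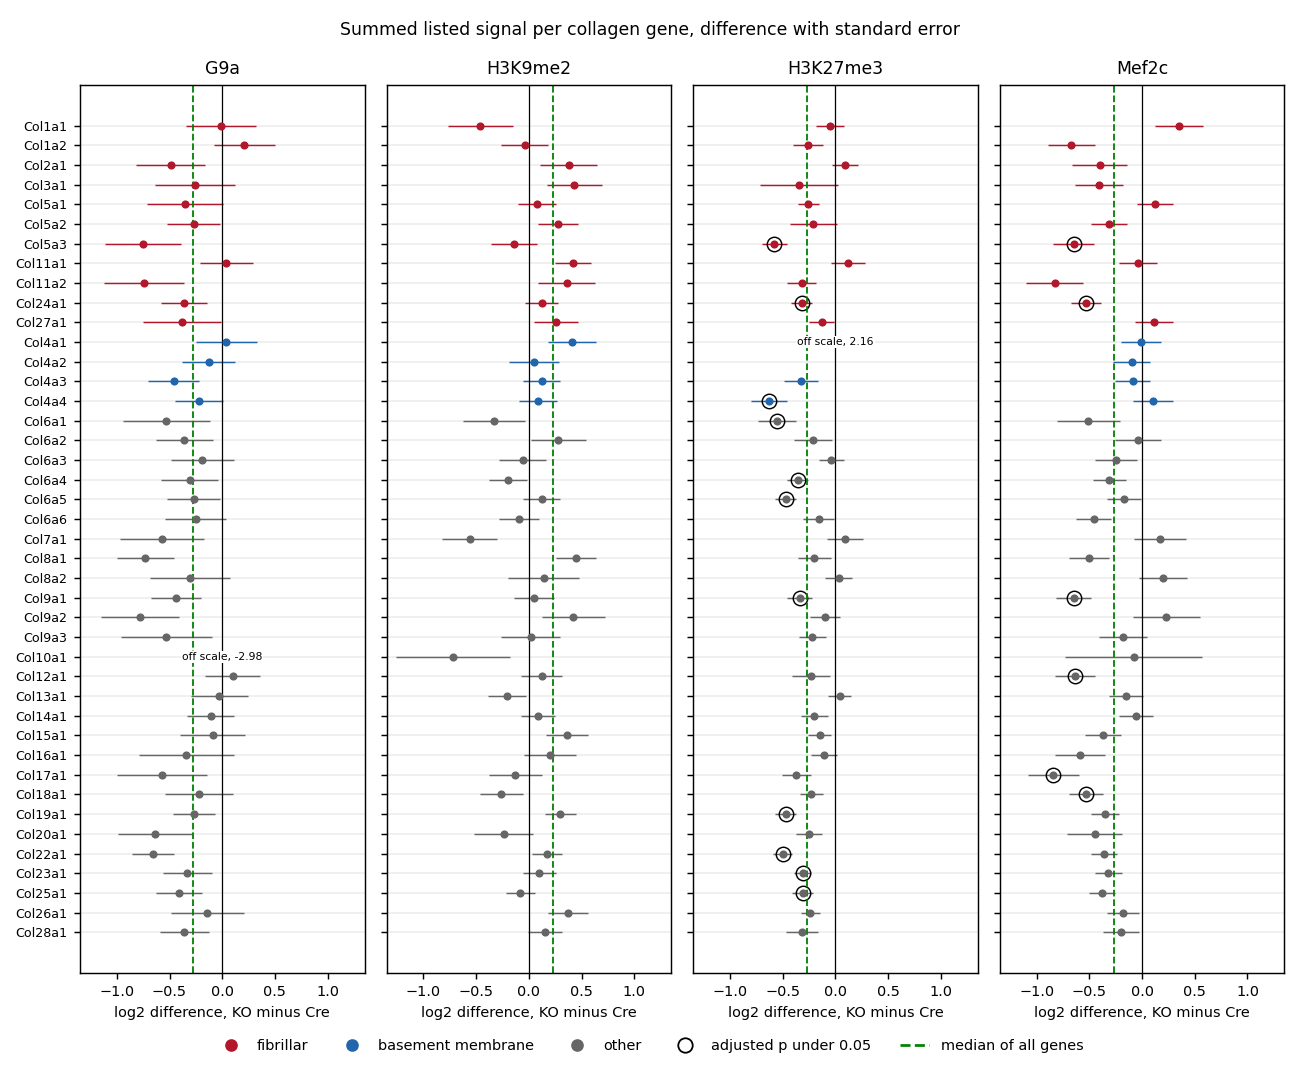
Log2 difference (KO minus Cre) of summed listed signal for each collagen gene in the 4 targets, with standard errors from limma; circles mark an adjusted p under 0.05, and the dashed line is the median of all genes. Col10a1 in G9a and Col4a1 in H3K27me3, each with a single listed region, lie off the scale at -2.98 and 2.16. The other points scatter around the dashed line, left of 0 in G9a, H3K27me3 and Mef2c and right of 0 in H3K9me2, with 11 circles in H3K27me3 and 6 in Mef2c.

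The other chains of the heart's matrix did not pass the adjusted test in any target. Col3a1 had Mef2c sums of 1109 and 911 in KO and 1224 and 1467 in Cre, and H3K27me3 sums of 297 and 444 in KO and 470 and 458 in Cre. Col5a2 had Mef2c sums of 2648 and 2706 in KO and 3445 and 3213 in Cre, with H3K9me2 sums of 3589 and 3599 in KO and 2906 and 2995 in Cre. Both genes thus had lower Mef2c and higher H3K9me2 in KO, with groups that did not overlap. Col5a1 had H3K27me3 sums of 21095 and 17954 in KO and 22986 and 23519 in Cre (-0.26 ± 0.10, SE, adjusted p = 0.0737 in limma), and its Mef2c sums overlapped. Col15a1 had Mef2c sums of 2354 and 2709 in KO and 3568 and 2978 in Cre, and H3K9me2 sums of 3135 and 3498 in KO and 2725 and 2452 in Cre. Of the type VI chains, Col6a2 had H3K27me3 sums of 2021 and 1880 in KO and 2225 and 2284 in Cre, while those of Col6a3 overlapped, at 8082 and 8410 in KO and 7742 and 9284 in Cre. Of the basement membrane pair, Col4a1 had H3K9me2 sums of 1756 and 2489 in KO and 1580 and 1558 in Cre, and those of Col4a2 overlapped, at 1358 and 1981 in KO and 1452 and 1718 in Cre. Mef2c sums overlapped in both.

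In all 4 targets the KO sums lay apart from the Cre sums at 5 of the 40 collagens fitted throughout (11.3% of all genes). Col8a1, Col11a2, Col19a1 and Col22a1 had lower G9a, H3K27me3 and Mef2c with higher H3K9me2 (5.86% of all genes). These are also the directions of the summed signal over each whole list, and the sums here were not scaled to the same median. The H3K9me2 differences of these genes were 0.45, 0.36, 0.3 and 0.17 in that order, against a median of 0.23 over all genes. Col20a1 was lower in all 4 targets. Of these 5 genes, Col22a1 had the most regions. Its G9a sums were 9913 and 9153 in KO and 15279 and 14796 in Cre, its Mef2c sums 9915 and 10468 in KO and 13613 and 12602 in Cre, and its H3K9me2 sums 17807 and 17540 in KO and 15754 and 15729 in Cre. These are counts of few genes, and no test was made of the difference from all genes.

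At start sites some regions did not share the direction of the gene as a whole. Within 2 kb of the 36 known start sites, which cover 33 of the 42 genes, 40 of 64 G9a regions, 16 of 41 H3K9me2 regions, 47 of 78 H3K27me3 regions and 24 of 46 Mef2c regions were lower in KO. Those shares were 62.5%, 39.0%, 60.3% and 52.2%, against 60.9%, 40.4%, 58.9% and 61.0% of the regions within 2 kb of the RefSeq starts of all autosomal protein-coding genes, and no test was made of them. The start sequences of the genes with the most marked regions are printed below from RefSeq (GRCm38.p6), so that a reader can see what lies under these regions. Each runs 5′ to 3′ on the gene's strand over 250 bases before and 50 bases after its start. Capitals mark, on either strand, the GC box GGGCGG, the CCAAT box CCAAT, the TATA box TATAAA and the MEF2 consensus.
Col13a1: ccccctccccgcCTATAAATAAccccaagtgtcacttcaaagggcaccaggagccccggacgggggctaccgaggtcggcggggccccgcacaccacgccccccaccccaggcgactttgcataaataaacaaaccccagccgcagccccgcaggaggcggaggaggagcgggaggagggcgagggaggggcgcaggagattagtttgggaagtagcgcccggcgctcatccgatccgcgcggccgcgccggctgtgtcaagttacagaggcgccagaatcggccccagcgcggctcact
Col1a2: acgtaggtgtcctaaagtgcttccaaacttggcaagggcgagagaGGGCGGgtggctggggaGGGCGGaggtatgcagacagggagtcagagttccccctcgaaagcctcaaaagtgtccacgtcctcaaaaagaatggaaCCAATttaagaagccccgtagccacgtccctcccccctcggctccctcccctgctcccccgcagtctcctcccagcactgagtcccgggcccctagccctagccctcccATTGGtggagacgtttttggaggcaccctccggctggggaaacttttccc
Col4a1: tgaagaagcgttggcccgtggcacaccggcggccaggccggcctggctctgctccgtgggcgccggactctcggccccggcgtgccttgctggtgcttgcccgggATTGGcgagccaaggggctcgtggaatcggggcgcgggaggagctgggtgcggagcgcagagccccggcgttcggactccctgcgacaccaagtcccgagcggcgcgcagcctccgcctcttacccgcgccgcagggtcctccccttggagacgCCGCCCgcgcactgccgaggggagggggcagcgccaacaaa
Col4a2: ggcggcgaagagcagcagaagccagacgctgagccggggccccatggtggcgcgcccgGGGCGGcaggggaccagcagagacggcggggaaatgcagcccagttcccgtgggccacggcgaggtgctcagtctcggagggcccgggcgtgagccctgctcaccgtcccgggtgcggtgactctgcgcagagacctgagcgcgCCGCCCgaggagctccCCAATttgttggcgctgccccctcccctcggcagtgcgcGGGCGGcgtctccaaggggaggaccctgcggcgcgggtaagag
Col9a1: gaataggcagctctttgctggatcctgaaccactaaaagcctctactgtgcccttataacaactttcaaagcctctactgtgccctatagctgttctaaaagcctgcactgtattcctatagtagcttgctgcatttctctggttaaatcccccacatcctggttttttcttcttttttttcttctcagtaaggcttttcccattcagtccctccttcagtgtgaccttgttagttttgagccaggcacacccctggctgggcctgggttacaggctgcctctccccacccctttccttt
Col18a1: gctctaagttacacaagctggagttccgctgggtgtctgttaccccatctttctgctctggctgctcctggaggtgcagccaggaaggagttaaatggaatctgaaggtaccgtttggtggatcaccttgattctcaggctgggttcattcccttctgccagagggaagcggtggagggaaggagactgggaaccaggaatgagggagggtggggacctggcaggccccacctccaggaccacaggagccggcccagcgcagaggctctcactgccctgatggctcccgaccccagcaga
They lie at chr10:61979059-61979358, chr6:4505368-4505667, chr8:11312777-11313076, chr8:11312555-11312854, chr1:24177360-24177659 and chr10:77113656-77113955, on the minus, plus, minus, plus, plus and minus strand in that order, and the last is the downstream of the start sites that RefSeq gives for Col18a1.

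The most strongly listed region at any collagen start was one of higher H3K27me3 at Col13a1, a transmembrane collagen of cell junctions. The region chr10:61976351-61980600 covers the start and had values of 1966 and 2447 in KO and 925 and 749 in Cre, with a -log10 p of 135.6 in the authors' deposited table. Both KO values lay far above both Cre values. The limma log2 difference was 1.40 ± 0.24 (SE, unadjusted p = 6.063e-05, adjusted p = 0.322). Over the whole gene the H3K27me3 sums overlapped, with 11649 and 13370 in KO and 12398 and 11858 in Cre, and 35 of its 63 regions were lower. The printed start holds 29 CG dinucleotides and a match to the MEF2 consensus that overlaps a TATA box. No Mef2c region was listed over the printed bases. Within 2 kb of the start, inside the gene, a Mef2c region from chr10:61977501 and a G9a region from chr10:61977751 were listed. Leaving out 1 value at a time gave positive log2 differences of 0.55 to 2.79 for that Mef2c region and 0.25 to 3.48 for that G9a region.

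H3K27me3 at Col1a2 was higher over the start and lower on both sides of it. The region chr6:4505001-4507500 had 1092 and 1168 in KO and 748 and 603 in Cre, at 0.75 ± 0.27 (SE, unadjusted p = 0.0163 in limma). The region just upstream, chr6:4502951-4505000, had 828 and 854 in KO and 953 and 1392 in Cre, and the next downstream, chr6:4507501-4508000, had 28 and 41 in KO and 108 and 105 in Cre. The groups did not overlap in any of these 3 regions. A similar arrangement, a higher region over the start with a lower region upstream, was listed at Col27a1 (2077 and 1692 in KO, 1619 and 1200 in Cre over the start; 1235 and 1070 in KO, 1754 and 1791 in Cre upstream) and at Col5a1 (1046 and 1016 in KO, 852 and 632 in Cre over the start; 257 and 300 in KO, 668 and 422 in Cre upstream). Col11a2 also had more H3K27me3 over its start, with 691 and 572 in KO and 347 and 345 in Cre. The printed Col1a2 start holds 2 CCAAT boxes and 2 GC boxes.

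**Figure D4:**
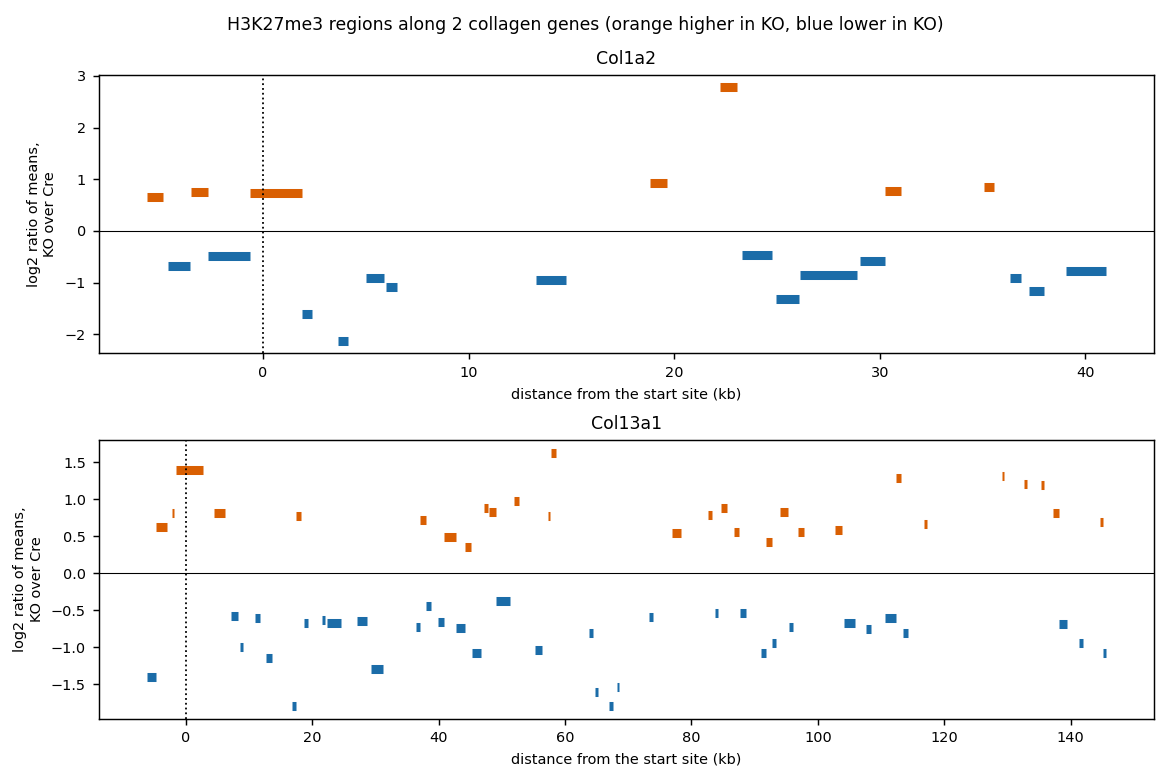
H3K27me3 regions along Col1a2 and Col13a1, placed by distance from the start site (kb, dotted line at 0) with the log2 ratio of means, KO over Cre, on the vertical axis; orange bars are higher and blue bars lower in KO. In both genes the bar over the start is orange, at 0.74 for Col1a2 and 1.40 for Col13a1, and blue bars lie along the rest of the gene among other orange ones.

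H3K27me3 was lower at other starts. Col5a3 had a region of 6350 bases over its start, chr9:20812351-20818700, with 2336 and 1973 in KO and 3296 and 3310 in Cre, at -0.62 ± 0.17 (SE, unadjusted p = 0.00328 in limma). Col6a3, the largest chain of type VI collagen, had 564 and 421 in KO and 903 and 877 in Cre over its start, and Col6a1 had 788 and 810 in KO and 1131 and 1415 in Cre just upstream. Col15a1, a collagen of muscle and capillary basement membranes, had a long region with 2505 and 2563 in KO and 3407 and 3171 in Cre over its start, next to a higher region downstream with 777 and 920 in KO and 600 and 485 in Cre. In each of these regions the KO values lay apart from the Cre values.

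Col4a1 and Col4a2 are transcribed in opposite directions from a shared start. Their RefSeq start sites are 21 bases apart and 78 bases are common to both printed sequences, on opposite strands. Over these starts Mef2c was higher in KO, with 113 and 124 in KO and 11 and 35 in Cre at chr8:11312351-11312900, and a log2 difference of 2.52 ± 0.99 (SE, unadjusted p = 0.0285, adjusted p = 0.399 in limma). Beside them, ending 55 bases short of the nearer start, H3K9me2 was 137 and 152 in KO and 18 and 85 in Cre at chr8:11312001-11312750 (1.85 ± 0.87, unadjusted p = 0.0638, and 0.76 without the first Cre value). No G9a or H3K27me3 region was listed within 2 kb of these starts. The sequences are rich in CG, with 37 and 33 dinucleotides for Col4a1 and Col4a2, and the MEF2 consensus has no match in either window. Elsewhere in the pair Mef2c went the other way, as at chr8:11438451-11441150 inside Col4a2, with 206 and 203 in KO and 667 and 469 in Cre.

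Col9a1, a cartilage chain that decorates collagen fibres, had the most strongly listed region of lower Mef2c in the family. Over its upstream start, chr1:24175151-24177950, Mef2c was 231 and 48 in KO and 687 and 599 in Cre, at -2.59 ± 0.66 (SE, unadjusted p = 0.0027, adjusted p = 0.399 in limma), with a -log10 p of 73.61 in the authors' deposited table. H3K9me2 at chr1:24177401-24178800 was 179 and 88 in KO and 344 and 310 in Cre, and H3K27me3 at chr1:24173751-24178250 was 843 and 906 in KO and 1496 and 1315 in Cre. The KO values lay below the Cre values in all 3 targets. Without the second KO value the Mef2c difference was -1.47. Near its downstream start Mef2c was 278 and 208 in KO and 65 and 127 in Cre at chr1:24193301-24194400, upstream of that start. Over the downstream start it was listed as lower, with 87 and 54 in KO and 57 and 154 in Cre, where the groups overlapped, and further in it was 119 and 50 in KO and 163 and 276 in Cre. The printed upstream start holds no CG dinucleotide and no match to any of the 4 motifs.

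Signal at Col18a1 was lower at its downstream start. G9a was 246 and 72 in KO and 550 and 519 in Cre at chr10:77113551-77115450 (-2.00 ± 0.68, SE, unadjusted p = 0.0192 in limma), and H3K9me2 was 153 and 75 in KO and 304 and 524 in Cre at chr10:77113101-77114950 (-1.89 ± 0.55, unadjusted p = 0.0077 in limma). Mef2c was 4 and 16 in KO and 112 and 106 in Cre at chr10:77114701-77115200. G9a and its product H3K9me2 were thus both lower here, and the KO values lay below the Cre values in all 3 targets. Col17a1 had the same combination at its start, where G9a was 161 and 132 in KO and 288 and 317 in Cre and H3K9me2 was 70 and 87 in KO and 174 and 315 in Cre. Col24a1, a fibrillar collagen, held H3K9me2 regions of both directions at its start. G9a over the start was 120 and 25 in KO and 302 and 283 in Cre, and H3K9me2 over the start was 86 and 30 in KO and 119 and 125 in Cre. Just downstream H3K9me2 was 458 and 396 in KO and 110 and 205 in Cre. Without the second KO value the G9a differences were -1.12 at Col18a1 and -1.28 at Col24a1.

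**Figure D5:**
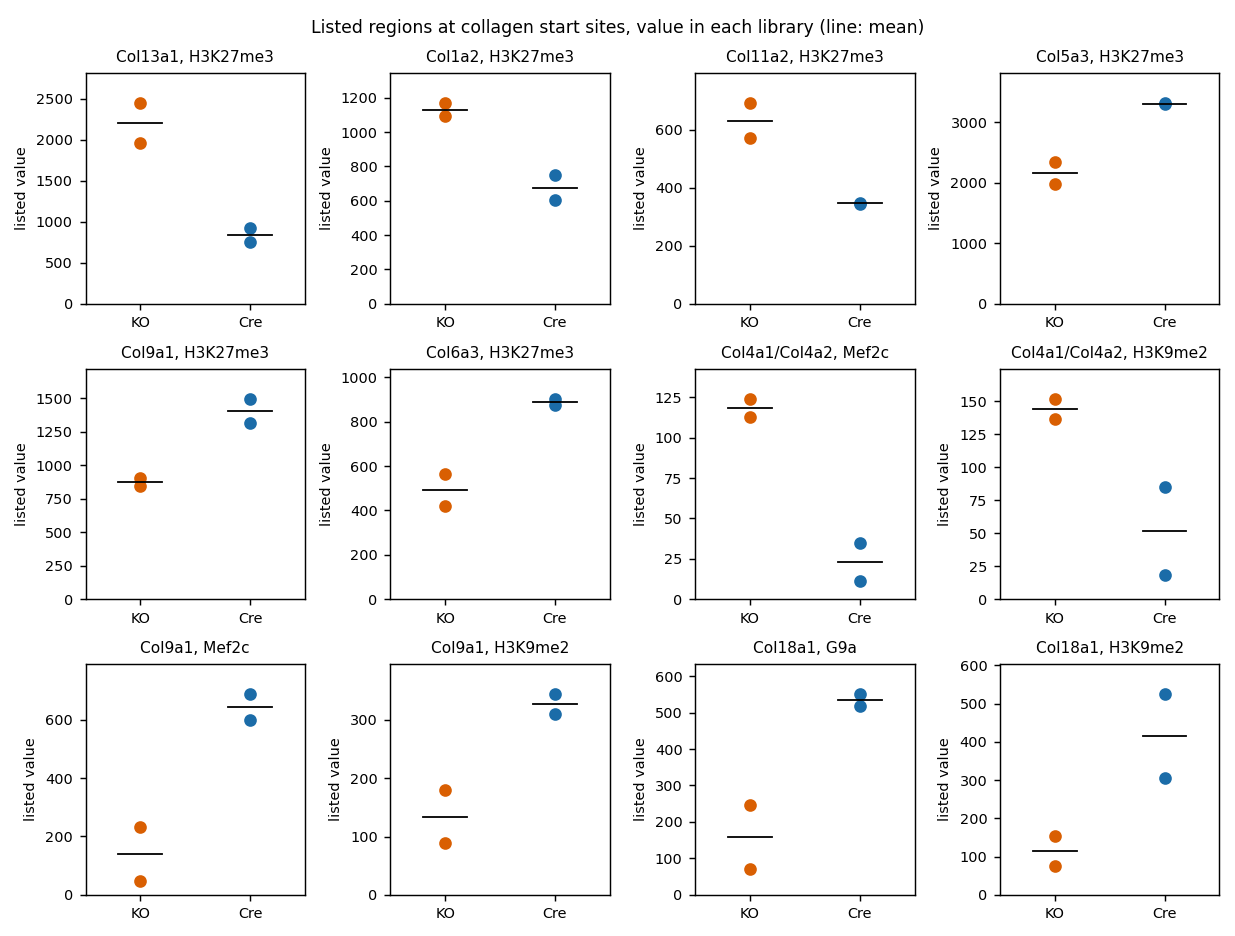
Listed values (vertical axes from 0) of 12 regions at collagen start sites, with 2 KO points in orange left of 2 Cre points in blue and a line at each mean. KO lies above Cre for H3K27me3 at Col13a1, Col1a2 and Col11a2 and for Mef2c over and H3K9me2 beside the shared Col4a1 and Col4a2 start, and below Cre in the other panels.

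Over the 36 collagen promoters, 58.3% hold a GC box, 33.3% a CCAAT box, 13.9% a TATA box and 2.8% a MEF2 consensus. The shares over all 20085 autosomal promoters in the table are 47.0%, 38.1%, 12.7% and 2.6%. The median number of CG dinucleotides was 12 in collagen promoters and 14 in all. Across the 33 genes Spearman's rho between the number of CG dinucleotides and H3K27me3 per kb in Cre was 0.08, given as a description of genes that share libraries.

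Elsewhere in the genes the interstitial collagens held strong regions of both directions. Near the end of Col1a1 with the lower coordinate, Mef2c was 275 and 128 in KO and 15 and 9 in Cre at chr11:94937501-94938400, the most strongly listed region of higher Mef2c in the family (3.90 ± 0.98 on the log2 scale, SE, unadjusted p = 0.00252, adjusted p = 0.399 in limma). Next to it G9a was 377 and 284 in KO and 202 and 64 in Cre at chr11:94939401-94940650. Inside Col5a2, H3K9me2 had its most strongly listed higher region in the family, with 336 and 300 in KO and 81 and 24 in Cre at chr1:45434001-45435300 (2.81 ± 0.70, unadjusted p = 0.00325 in limma), while G9a near the end of Col5a2 with the higher coordinate was 132 and 83 in KO and 333 and 335 in Cre. Col3a1 had few H3K27me3 regions, 4 in all, and the strongest, just inside the start, had 14 and 1 in KO and 96 and 58 in Cre. At chr6:4530451-4531950 inside Col1a2, G9a was 102 and 270 in KO and 312 and 267 in Cre, so the groups overlapped. In the same stretch H3K9me2 was 235 and 213 in KO and 329 and 595 in Cre and Mef2c 37 and 40 in KO and 170 and 176 in Cre.

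Other strongly listed regions lay in collagens outside the interstitial fibres. The first lower G9a region by the authors' -log10 p was in Col8a1, with 91 and 34 in KO and 357 and 519 in Cre at chr16:57627301-57629100, and the first higher one was in Col6a6, a type VI chain, with 356 and 379 in KO and 92 and 93 in Cre at chr9:105736251-105737850. The first lower H3K9me2 region was in Col23a1, a transmembrane collagen, with 16 and 50 in KO and 245 and 321 in Cre at chr11:51417651-51418950. At the same place, chr11:51416701-51418950, G9a was 178 and 112 in KO and 667 and 316 in Cre. The first lower H3K27me3 region was in Col26a1, with 2842 and 1862 in KO and 4358 and 3652 in Cre over 9800 bases at chr5:136864701-136874500. Both KO values lay apart from both Cre values in all of these.

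After these, the listed G9a values were lower inside Col25a1, a transmembrane collagen of nerve and muscle, with 1 and 17 in KO and 233 and 181 in Cre, and inside Col5a3, with 101 and 85 in KO and 523 and 308 in Cre. They were higher in another stretch of Col25a1, with 280 and 298 in KO and 56 and 67 in Cre, in Col6a5, with 475 and 599 in KO and 140 and 244 in Cre, in Col12a1, with 505 and 583 in KO and 324 and 112 in Cre, and elsewhere in Col23a1, with 124 and 210 in KO and 14 and 30 in Cre. The same gene thus held strongly listed G9a regions of both directions, as Col25a1 and Col23a1 show.

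H3K9me2 was lower inside Col6a5, with 56 and 78 in KO and 335 and 285 in Cre, in the upstream flank of Col25a1, with 16 and 6 in KO and 228 and 107 in Cre, and inside Col14a1, a collagen on the surface of fibres, with 33 and 43 in KO and 311 and 134 in Cre. It was higher inside Col11a1, with 174 and 171 in KO and 2 and 15 in Cre, Col28a1, with 239 and 168 in KO and 42 and 0 in Cre, and Col22a1, with 272 and 265 in KO and 19 and 78 in Cre. A region of Col27a1 was listed at 0 in both Cre libraries, with 139 and 127 in KO. The groups did not overlap in any of these regions.

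H3K27me3 was lower inside Col22a1, with 1376 and 873 in KO and 2168 and 2085 in Cre, inside Col25a1, with 30 and 3 in KO and 205 and 297 in Cre, and inside Col5a1, with 308 and 121 in KO and 543 and 788 in Cre. It was higher in Col1a2 far from the start, with 219 and 163 in KO and 35 and 19 in Cre, elsewhere in Col26a1, with 636 and 587 in KO and 352 and 121 in Cre, and elsewhere in Col22a1, with 374 and 514 in KO and 251 and 91 in Cre. A higher region in Col6a6, with 137 and 505 in KO and 13 and 180 in Cre, had overlapping groups.

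Mef2c was lower inside Col17a1, with 392 and 109 in KO and 574 and 859 in Cre, Col22a1, with 71 and 18 in KO and 259 and 356 in Cre, Col25a1, with 0 and 66 in KO and 157 and 352 in Cre, and Col24a1, with 27 and 13 in KO and 318 and 113 in Cre. It was higher inside Col14a1, with 158 and 226 in KO and 44 and 0 in Cre, elsewhere in Col22a1, with 300 and 272 in KO and 82 and 99 in Cre, inside Col13a1, with 214 and 340 in KO and 131 and 52 in Cre, and inside Col16a1, with 119 and 109 in KO and 1 and 22 in Cre. The groups were separate in all of these Mef2c regions.

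Lower G9a and lower H3K9me2 shared sequence at the collagens in part. Of 1059 lower G9a regions at collagens, 25.8% overlapped a lower and 24.5% a higher H3K9me2 region, against 23.6% and 25.9% of the lower G9a regions at all genes. From the other side, 36.9% of the 710 lower H3K9me2 regions overlapped a lower and 14.8% a higher G9a region, against 29.6% and 12.1% at all genes. Of 653 higher G9a regions at collagens, 16.2% overlapped a lower and 28.9% a higher H3K9me2 region, against 14.6% and 29.2% at all genes. Where G9a was listed as lower at a collagen gene, H3K9me2 was thus listed as higher about as often as lower. Where G9a was listed as higher, H3K9me2 was more often higher than lower.

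The machinery that builds and reads collagen was set beside the genes themselves. Among 18 genes of folding and modification, 4 of the 16 with a listed region fell in H3K27me3 at an adjusted p under 0.05 in limma (15.1% of all genes): P4ha3, P3h2, Fkbp14 and Mia3, which hydroxylate, fold or export procollagen. With the libraries scaled to the same median Mia3 passed (adjusted p = 0.0396 in limma) and the other 3 did not (adjusted p of 0.087 to 0.335). Fkbp14, a prolyl isomerase of the endoplasmic reticulum, also rose in H3K9me2 (3.03% of all genes), with 1012 and 958 in KO and 351 and 430 in Cre (1.34 ± 0.33, SE, adjusted p = 0.0206 in limma, and 0.0624 with scaled libraries). Among 12 genes of processing and cross-linking, Bmp1, Adamts14 and Loxl3 fell in H3K27me3, and none passed in the other targets. Bmp1, which cleaves the C-propeptide of fibrillar procollagens, had 633 and 428 in KO and 1069 and 1018 in Cre (adjusted p = 0.0205 in limma, and 0.168 with scaled libraries). Lox, the main cross-linking oxidase, had H3K9me2 sums of 760 and 842 in KO and 346 and 397 in Cre, which did not pass (adjusted p = 0.0608 in limma). Among 18 receptors and turnover genes, Itga2, Itga11 and Mmp14 fell in H3K27me3 and Mrc2 in Mef2c (5.87% of all genes). In folding and modification P4ha3 and P3h2 fell in Mef2c as well. Of all these calls, Mia3 alone held with scaled libraries. Of the 7 fibroblast marker genes none passed in any target, with H3K27me3 net lower at 4 and net higher at 3 of them (71.6% of all genes net lower). Among markers of other cell types, H3K27me3 was net lower at 6 of 6 endothelial genes, 4 of 5 leukocyte genes and 4 of 6 smooth muscle and pericyte genes. H3K27me3 calls among them (15.1% of all genes lower) were endothelial Pecam1 (-0.76, adjusted p = 0.00583 in limma), leukocyte Adgre1 and Ptprc (-0.65 and -0.44) and pericyte Rgs5 (-0.45). Mef2c fell at Cdh5 (-0.82) and Myh11 (-0.67, 5.87% of all genes lower), and these 6 calls did not hold with scaled libraries. H3K9me2 fell at endothelial Tie1 (-1.02, adjusted p = 0.0486 in limma, and 0.013 with scaled libraries, 0.135% of all genes lower). It rose at cardiomyocyte Myh6 (0.99, adjusted p = 0.0114 in limma, and 0.0422 with scaled libraries, 3.03% of all genes higher). The part of these cell types in the collagen results was not tested.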

How the data were processed

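The study measured G9a, H3K9me2, H3K27me3 and Mef2c by ChIP-seq in 18 libraries, 2 for each target and genotype and 1 input for each genotype. Per the submitters' processing notes, BWA 0.7.10-r789 and SAMtools 1.1 were used with mouse build mm10 (GRCm38). The deposited lists give, for each region, whole-number values of another unit of unstated scale, and the authors' −log10 p. The labels and notes name no region caller, normalization or use of the inputs (not given in the sources used here). Depth is unknown. The deposited values were not treated as counts. The series text calls the replicates biological.

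Regions were assigned to a gene by an overlap of at least 1 base with its span or 5 kb on either side, and their values were summed per gene. Regions and sums were compared, KO against Cre, with limma 3.58.1 in R 4.3.3 on log2(value + 1) with a variance trend, over the whole list of a target or over all autosomal protein-coding genes with a listed region, with Benjamini-Hochberg adjustment. Fold differences of low values are understated on this scale. The fits were also run on simulated normal noise around the listed means, with 200 large changes planted per target. The simulation did not include the selection of regions for a difference, so it does not bear on the p-values given here. Figures and summaries used Python 3.11.15 and pandas 2.3.3. Promoter sequences came from RefSeq.

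Genes named were, for each target, the 5 with the most strongly listed lower and the 5 with the most strongly listed higher region, the 3 most negative and 3 most positive sums with KO apart from Cre, the heart matrix collagens, and genes apart in all 4 targets. Start regions and the cartilage genes of the H3K27me3 levels were named after their values were seen. The members and lists were chosen with earlier results of these data known. Alternatives were another pseudocount, scaling to the same median, other flanks, a −log10 p of at least 10, no variance trend and leaving out each value. The scaling of pathway genes was added after seeing the data.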

Additional observations from a re-analysis of the deposited data

How the results depend on the processing

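No paired analysis was possible because the values in the lists carry no replicate number. With the libraries scaled to the same median, the collagen sums with a negative difference numbered 22 in G9a, 32 in H3K9me2, 16 in H3K27me3 and 19 in Mef2c. The adjusted calls then numbered 2 in H3K9me2 (3.24% of all genes), 0 in H3K27me3 (3.21%) and 0 in Mef2c (2.03%). With regions of a −log10 p of at least 10 the calls were 10 of 40 in H3K9me2 (21.41% of all genes), 19 of 39 in H3K27me3 (44.56%) and 21 of 39 in Mef2c (29.84%). With no flank they were 3 in Mef2c (3.9%). Regions of H3K27me3 at an unadjusted p under 0.05 numbered 132 with no variance trend. Genes with lower regions only numbered 10, 3, 7 and 9 in G9a, H3K9me2, H3K27me3 and Mef2c at a −log10 p of at least 10, 1 in H3K27me3 and 2 in Mef2c with no flank, and 1 in H3K9me2 and 1 in Mef2c when only regions with separate values were kept. Genes with higher regions only numbered 1 in G9a, 7 in H3K9me2 and 2 in Mef2c at a −log10 p of at least 10, 0 in H3K27me3 with no flank, and 1 in G9a and 0 in H3K27me3 with separate values. Such counts were not made over all genes under these settings, so whether they differ from the background is not known. Lower G9a regions at starts or unoriented ends numbered 37 within 1 kb, a window chosen after seeing the data, against 58 within 2 kb.

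Leaving out each value in turn gave 0 to 222 called regions in G9a and none in the other targets, and 33 to 584, 59 to 349, 117 to 312 and 64 to 255 regions at an unadjusted p under 0.05 in G9a, H3K9me2, H3K27me3 and Mef2c. Called sums ranged over 0 to 15, 0 to 3, 0 to 8 and 0 to 10, and negative sums over 21 to 39, 10 to 23, 33 to 35 and 30 to 36. The upper G9a extremes of the calls were those without the first KO value, where calls appeared over the whole list and not only at collagens. At the upper extremes of called sums in the other targets, calls also appeared over all genes. Each such fit left a single value in a genotype, so no conclusion is drawn from its number of calls. The median difference of the collagen sums in these fits was -0.58 (-0.3 over all genes) in G9a and 0.18 (0.28) in H3K9me2. It was -0.22 (-0.26) in H3K27me3 and -0.31 (-0.2) in Mef2c. The lowest number of negative G9a sums, 21, was that without the second KO value. Reversed were a G9a region of Col14a1 (-0.47 without the second KO value, range up to 3.45), an H3K9me2 region of Col1a1 (-0.09 without the second KO value, range up to 1.21), an H3K27me3 region of Col18a1 (0.1 without the second Cre value, range down to -1.11) and an H3K27me3 region of Col9a3 (0.17 without the first Cre value, range down to -1.62). Of 2092 alternatives for 255 single regions and sums, 1997 kept direction and side of the threshold, 70 lost a call, 21 gained one and 4 reversed. Causes were not tested. Unknown depth limits all statements on regions with small values.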
